A study of Mus musculus with 4 samples.

Results

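Endosomal coat, sorting and retromer genes were taken from the protein-coding genes of the mouse annotation by symbol. The rule took symbols starting with Vps, Snx, Clta, Cltb, Cltc, Copa, Copb, Copg, Cope or Copz, and the subunits of the adaptor complexes AP-1 to AP-4. It found 100 genes among 21951 protein-coding genes. The rule itself used no measured value, but the gene set was chosen with earlier results of these data known. The study measured RNA that came down with IGF2BP2, a protein that binds mRNA and recognises the m6A mark, from mouse bone-marrow-derived macrophages. The 4 samples are 2 IGF2BP2 immunoprecipitation libraries (replicate 1 and replicate 2) and 2 input libraries, and the input libraries were not analysed here. The labels name no treatment, genotype, strain or age, and whether the replicates are separate cultures or animals is not said, so their spread may be technical. An IGF2BP2 antibody is listed among the sample characteristics, whereas a monoclonal Flag antibody is given in the protocol.

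Membrane proteins move between the cell surface, endosomes, Golgi and lysosomes in coated carriers. Clathrin forms an outer lattice that adaptor complexes link to cargo, and the COPI coat acts in transport between the Golgi and the endoplasmic reticulum. Retromer and the sorting nexins return cargo from endosomes, ESCRT proteins sort ubiquitinated cargo into vesicles inside them, and the HOPS and CORVET tethers act in fusion at endosomes and lysosomes. Macrophages rely on this system for uptake and digestion of particles.

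Each library gave a list of peaks, regions of the genome where sequenced fragments (tags) piled up. The lists held 15511 peaks with 189393 tags in replicate 1 and 22570 peaks with 324456 tags in replicate 2. The total depth of the libraries is not known from these files. No input or expression value stood beside the peaks, so a bound transcript and an abundant one cannot be told apart. Intervals on tags are exact Poisson 95% intervals and those on shares are exact Clopper-Pearson 95% intervals, and both cover counting error only, since no molecular identifiers remove PCR copies. Of 6 macrophage markers, 4 had a peak in replicate 1 and 5 in replicate 2, among them Csf1r, the receptor for the macrophage growth factor, with 932 and 1421 tags. Lyz2 had no peak in either library, Cd68 had peaks in replicate 2 only, and Mertk had 8 and 43 tags. Of 6 markers of other cells, 1 had a peak, Cd3e in replicate 1 with 3 tags.

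Some peaks of these genes had summits, the positions of highest coverage, in the same exon in both libraries, at most 20 nt apart. Sequence was read at 13 of these pairs, all with both summits in coding sequence, and of those 13 the windows with the most tags are shown. Not every strong pair is among the 13. The Clta exon 3 pair (36 and 82 tags) and a Snx8 3′ UTR pair (52 and 63 tags) are not. By the authors' regions, the peaks at Snx5 exon 13 and Snx8 exon 7 were mostly intron in both libraries. So were the replicate 2 peaks at Cltc exon 31, Snx29 exon 9 and Ap2a2 exon 10. Each line gives 30 nt of the mRNA strand centred between the summits of the 2 libraries, 5′ to 3′, from the GENCODE transcripts on GRCm38, with the bases from one library's summit to the other's in capitals. The windows are in Snx5 exon 13 of 14 (chr2:144252461-144252490, minus strand), Snx8 exon 7 of 10 (chr5:140346305-140346334, minus strand), Cltc exons 20 and 31 of 32 (chr11:86707205-86707234 and chr11:86697299-86697328, minus strand), Snx29 exon 9 of 21 (chr16:11413231-11413260, plus strand), Ap3b1 exon 19 of 27 (chr13:94479733-94479762, plus strand) and Ap2a2 exon 10 of 22 (chr7:141614209-141614238, plus strand).
Snx5 exon 13: aaagaaccTAATCGAAATGTCTgaactgga
Snx8 exon 7: ggagaatgatGTAGTGGAGaagctgaacct
Cltc exon 20: aatctgcaaaatCTCCTcatcctcactgca
Cltc exon 31: gatgcttcGGAGTCGCTGAGAAaagaagaa
Snx29 exon 9: tggatgggaacGCCTGCCtggcccaggtcc
Ap3b1 exon 19: ggtccggaagTGAGAGTGGagacacaggca
Ap2a2 exon 10: acgtgagtGTGAGGCAGCGGGcagtggacc

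Sense peaks were found in 59 of the 100 genes in replicate 1, against 22% of all protein-coding genes, and in 71 in replicate 2, against 26.7%. Both libraries had a peak in 54 genes (17% of all protein-coding genes). A peak of one library overlapped a same-strand peak of the other by 1 bp or more in 34 genes (9.07% of all protein-coding genes). Either library had a peak in 76 genes, against 31.7%. The median mRNA was 2944 nt long in these genes and 2569 nt in all protein-coding genes, and the median gene span was 33 kb and 17.4 kb. Among all protein-coding genes with a peak in both libraries those medians were 3756 nt and 41.5 kb, so genes with peaks were long, and the part of length and of expression in these counts was not tested.

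Of the 76 genes with a peak, 34 had overlapping peaks, 20 had peaks in both lists with none overlapping, 5 had a peak in replicate 1 only and 17 in replicate 2 only. As shares of the genes with a peak these were 44.7%, 26.3%, 6.58% and 22.4%, against 28.7%, 25.1%, 15.7% and 30.5% over all 6950 protein-coding genes with a peak. Genes seen in 1 library had few tags, at most 15 where replicate 1 alone had the peak and at most 41 where replicate 2 alone had it. The 24 genes with no sense peak were Ap1m2, Ap1s3, Ap3b2, Ap3m1, Ap3s1, Ap4b1, Ap4m1, Cope, Copz2, Snx15, Snx18, Snx21, Snx22, Snx31, Snx32, Snx33, Vps25, Vps28, Vps29, Vps33b, Vps37d, Vps51, Vps54 and Vps9d1. Their median mRNA was 2632 nt and their median span 11.7 kb.

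**Figure D1:**
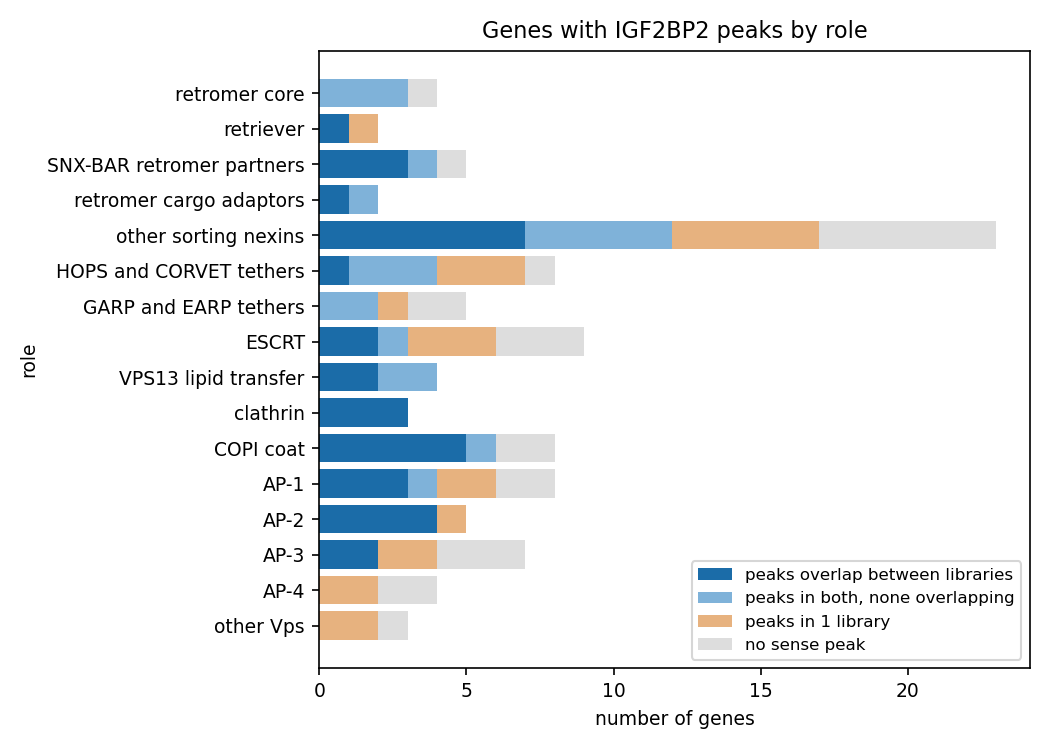
Number of genes (horizontal axis) in each role (vertical axis), divided by whether their IGF2BP2 peaks overlapped between the 2 libraries, occurred in both without overlap, in 1 library, or in neither. All 3 clathrin genes had overlapping peaks, and none of the 4 genes of the retromer core or the 4 AP-4 genes did. The share over all protein-coding genes was 9.07%.

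Clathrin was the only role of 3 or more genes in which every gene had overlapping peaks, beside 9.07% of all protein-coding genes. It has only 3 genes, and AP-2 had 4 of 5. The overlapping peaks of Cltb held 4 to 9 tags each. Cltc, the clathrin heavy chain, had 15 peaks with 324 tags (290 to 361) in replicate 1 and 19 peaks with 667 tags (617 to 720) in replicate 2. Clta, a light chain, had 45 tags (32.8 to 60.2) and 214 tags (186 to 245). Cltb, the other light chain, had 13 tags (6.92 to 22.2) and 26 tags (17 to 38.1). Per kb of mRNA, tags of peaks that were mostly exonic by the authors' regions came to 44.2 and 67.5 for Cltc, to 31.7 and 95.2 for Clta and to 1.83 and 11.9 for Cltb. This leaves out peaks at exons whose larger part is intron, such as the 82-tag Clta peak at exon 3 in replicate 2. With every peak whose summit lay in an exon, which was added once the values were known, they came to 44.2 and 91.9 for Cltc, 31.7 and 167 for Clta and 5.95 and 11.9 for Cltb. By both counts Cltb was the lowest of the 3 in both libraries, and Cltc was above Clta in replicate 1 and below it in replicate 2.

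The Cltc peaks followed its exons. Peaks touched 12 of its 32 exons in replicate 1 and 18 in replicate 2, and 10 exons in both. The peak on exon 10 had the same start and end in both lists (chr11:86721575-86721697), with 22 and 31 tags, and covered the exon from edge to edge. The peak on exon 20, whose summit window is printed above, had 27 and 33 tags. The strongest Cltc peak of replicate 2 (chr11:86711032-86711989, 132 tags, 110 to 157) spanned 2 separate replicate 1 peaks of 21 and 15 tags. There the same stretch was listed as 1 region in one library and as 2 in the other.

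Clta had its strongest peak in exon 3 in both libraries, with 36 tags (25.2 to 49.8) and 82 tags (65.2 to 102). Its summits were 11 nt apart. The 2 libraries differed at exon 4: replicate 2 had a peak of 72 tags that covered exactly this exon (chr4:44025449-44025560), and replicate 1 listed no sense peak there. Replicate 1 listed an antisense peak of 5 tags over part of the same exon.

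**Figure D2:**
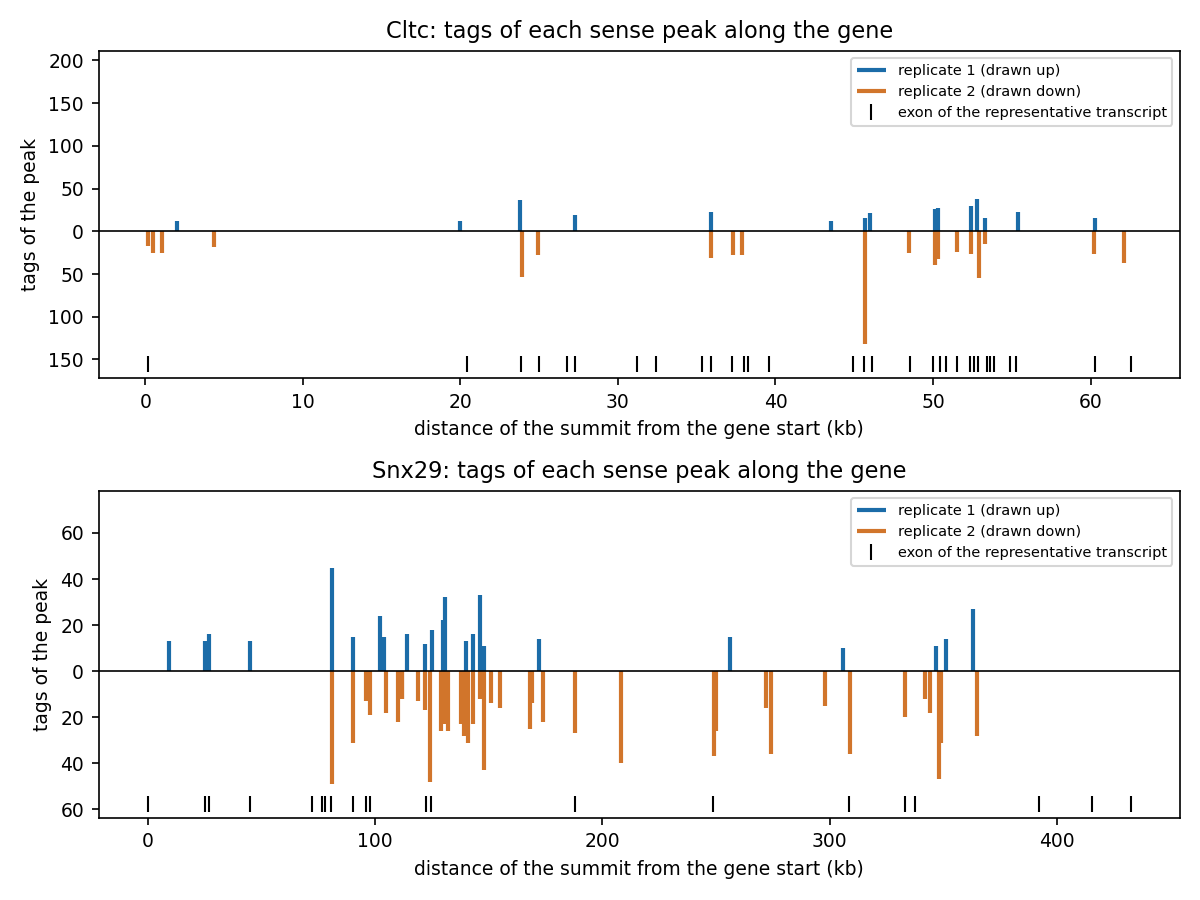
Tags of each sense peak (vertical axis) by the distance of its summit from the gene start in kb (horizontal axis) for Cltc and Snx29, with replicate 1 drawn upwards, replicate 2 downwards and exons as ticks. Cltc peaks sit mostly at exons, with the 132-tag peak of replicate 2 the highest, whereas Snx29 peaks also fill the introns between its exons.

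Retromer core genes had at most 45 tags in a library. Vps35, the scaffold subunit, had 6 and 15 tags. Vps26a, an arrestin-fold subunit, had 9 tags in 1 peak and 45 tags in 4 peaks. Vps26b, its paralog, had 8 and 6 tags, and Vps29, the third subunit, had no sense peak in either list. The 3 core genes with peaks had them in both libraries but at different places, with no overlap. In the retriever complex, which is related to retromer, Vps35l had 39 tags (27.7 to 53.3) and 78 tags (61.7 to 97.3), with overlapping peaks, and Vps26c had 6 tags in replicate 2 only.

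Of the 5 sorting nexins with BAR domains that were counted as retromer partners, 3 had overlapping peaks, beside 9.07% of all protein-coding genes. Snx5 had 213 tags (185 to 244) in 7 peaks and 332 tags (297 to 370) in 6 peaks, and every replicate 2 peak overlapped a replicate 1 peak. Its strongest peak lay in intron 3 in both lists, with 58 tags (44 to 75) and 107 tags (87.7 to 129) and summits 5 nt apart. The peak around exon 13 had 38 and 77 tags, and the peak that covered exon 6 exactly had 26 and 40 tags. Snx2 had 67 and 58 tags and Snx1 had 36 and 30 tags, both lower in replicate 2, against the direction of most of these genes. Snx6 had 15 and 24 tags with no overlap, and Snx32 had no peak.

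Snx3 and Snx27 select cargo for retromer. Snx3 had 26 tags (17 to 38.1) and 43 tags (31.1 to 57.9), with 1 overlapping position. Snx27 had 11 and 43 tags, and its peaks did not overlap.

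Snx29, a PX-domain sorting nexin, had the highest summed tags of the 100 genes, not scaled for length: 418 (379 to 460) in 23 peaks and 986 (925 to 1050) in 40 peaks. Its peaks covered 9381 nt and 19658 nt, so covered length as well as tags was larger in replicate 2. Introns held 17 of its peaks with 298 tags in replicate 1 and 37 peaks with 900 tags in replicate 2. Only 8 and 9 of its peaks overlapped the other list. The strongest, in exon 8, had 45 and 49 tags.

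Snx24, another PX-domain gene, had 151 tags (128 to 177) and 283 tags (251 to 318), and all of its 12 and 16 peaks were intronic. Of these, 7 in each list overlapped the other list. Snx8, which has PX and BAR domains, had 196 tags (170 to 225) and 397 tags (359 to 438). Its strongest peaks were in the 3′ UTR, with 52 and 63 tags and summits 3 nt apart. Snx30 had 82 and 108 tags, Snx9, which acts in endocytosis, had 42 and 107, Snx13 had 27 and 51, and Snx12 had 24 and 50. Of all 23 nexins outside the retromer roles, 13 had a peak in replicate 1 and 16 in replicate 2. Both libraries had a peak in 12, with overlap in 7, beside 17% and 9.07% of all protein-coding genes.

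**Figure D3:**
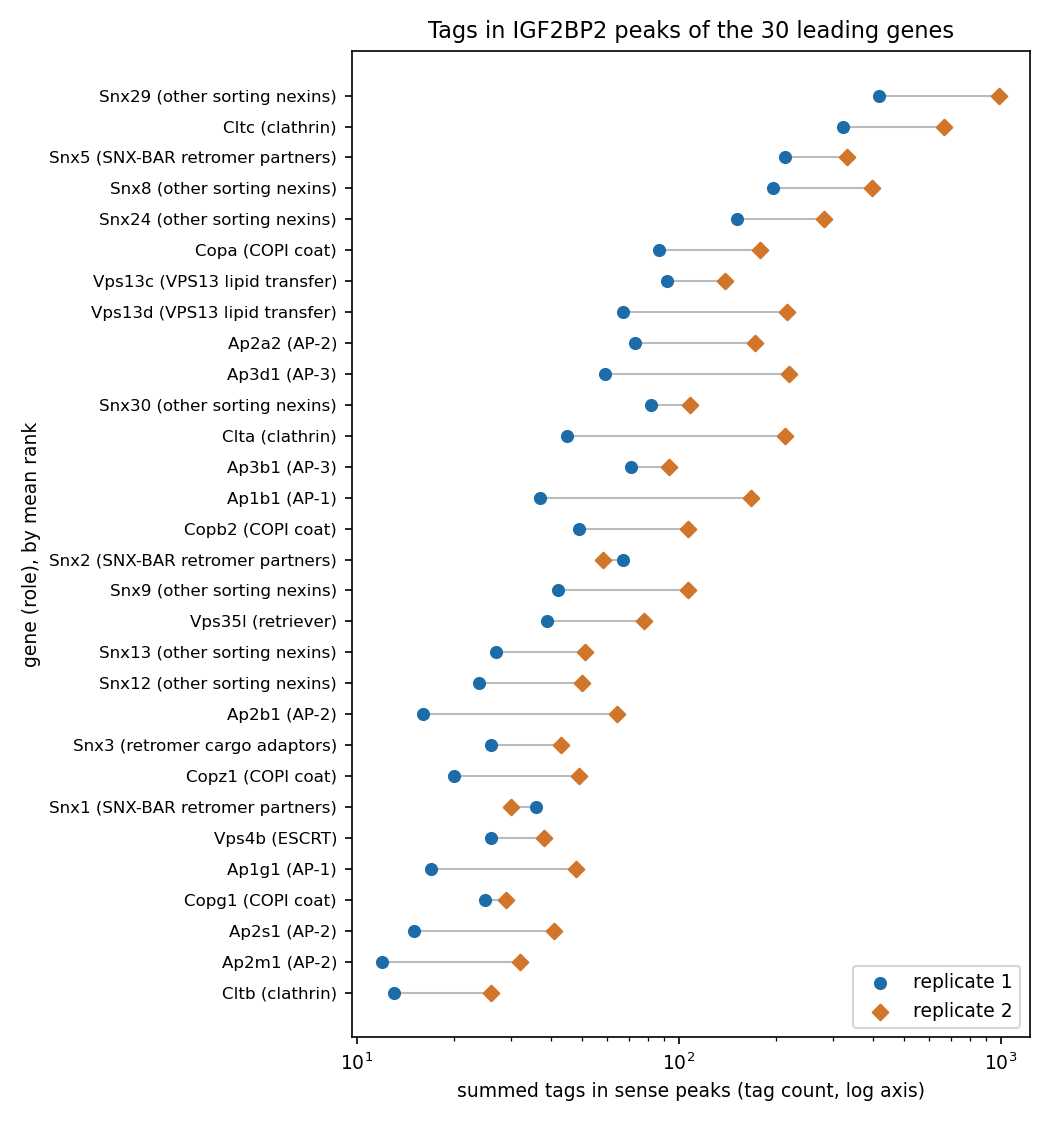
Summed tags in sense peaks on a log axis for the 30 genes with overlapping peaks that ranked highest, with replicate 1 as circles, replicate 2 as diamonds and the role in brackets. Snx29, with 418 and 986 tags, and Cltc, with 324 and 667, lead, and replicate 2 lies to the right except for Snx2 and Snx1.

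Of the 8 COPI genes, 6 had peaks in both libraries and 5 had overlapping peaks, beside 17% and 9.07% of all protein-coding genes. Copa, the alpha subunit, had 87 tags (69.7 to 107) and 178 tags (153 to 206). All 8 of its replicate 1 peaks had an edge at a splice boundary, as had 7 of 9 in replicate 2. The peak on exon 25 (chr1:172117187-172117296) was the whole exon in both lists, with 17 tags (9.9 to 27.2) and 41 tags (29.4 to 55.6). Copb2, the beta-prime subunit, had 49 and 107 tags, all in peaks that were wholly or mostly coding sequence. Its exon 9 peak, again the whole exon, had 11 and 39 tags. Copz1 had 20 and 49 tags and Copg1 had 25 and 29. Copb1 had 27 and 8 tags, and Cope and Copz2 had no peak.

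Subunits of AP-2, the clathrin adaptor of the cell surface, all had a peak in at least 1 library, beside 31.7% of all protein-coding genes. Ap2a2, an alpha subunit, had 73 tags (57.2 to 91.8) and 172 tags (147 to 200). Ap2b1, the beta subunit, had 16 and 64 tags, Ap2s1, the sigma subunit, had 15 and 41, and Ap2m1, the mu subunit, had 12 and 32. These 4 had overlapping peaks and were higher in replicate 2. Ap2a1, the other alpha subunit, had 15 tags in replicate 1 and no peak in replicate 2.

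The other adaptor complexes were uneven. In AP-1, which acts at the trans-Golgi network and endosomes, Ap1b1 had 37 and 167 tags and Ap1g1 had 17 and 48, while Ap1m2 and Ap1s3 had no peak. In AP-3, which sorts proteins to lysosomes and related organelles, Ap3d1 had 59 tags (44.9 to 76.1) and 220 tags (192 to 251), and Ap3b1 had 71 and 93. The other 5 AP-3 genes had no peak or one in 1 library, with at most 6 tags. In AP-4, no gene had a peak in replicate 1, and Ap4e1 and Ap4s1 had 4 tags each in replicate 2.

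Among the lipid transfer proteins of the VPS13 family, all 4 genes had a peak in both libraries, beside 17% of all protein-coding genes. Vps13c had 92 tags (74.2 to 113) and 139 tags (117 to 164), and Vps13d had 67 tags (51.9 to 85.1) and 216 tags (188 to 247). Their mRNAs are long, 11527 nt and 15849 nt. Per kb of mRNA, exonic peaks of Vps13c held 7.46 and 6.77 tags and those of Vps13d 3.28 and 12.5, under the values of Cltc. Counted by summit, Vps13c had 7.98 and 10.5 and Vps13d 3.28 and 13.1, also under Cltc. Vps13b had 15 peaks in replicate 2 and 3 in replicate 1, with no overlap.

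Overlapping peaks were found in 3 of the 22 ESCRT and tether genes (13.6%), near the 9.07% of all protein-coding genes. Vps4b, an ATPase that takes ESCRT-III apart, had 26 tags (17 to 38.1) and 38 tags (26.9 to 52.2), with the exon 4 peak covering the whole exon in both lists. Of the 9 ESCRT genes, 3 had a peak in replicate 1 and 6 in replicate 2, with 3 in both libraries and 2 with overlap. Of the 8 genes grouped here as HOPS and CORVET, Vps33b among them, 4 had a peak in replicate 1 and 7 in replicate 2. Both libraries had one in 4 of these genes, with overlap in 1. Of the 5 GARP and EARP genes, which tether carriers at the Golgi and at endosomes, 2 had peaks in both libraries and none overlapped. Peaks in both libraries were found in 17% of all protein-coding genes.

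The tags were concentrated in a few genes. Snx29, Cltc, Snx5, Snx8 and Snx24 together held 48.5% of the tags of these genes in replicate 1 and 46.2% in replicate 2. Over the 54 genes with a peak in both libraries, summed tags were higher in replicate 2 in 44, lower in 9 and equal in 1, and the rank correlation across genes was 0.82. Genes share their library's depth, so this is a description.

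At the 106 pairs of overlapping peaks, in 34 genes, the median ratio of replicate 2 to replicate 1 was 1.45 (0.53 on the log2 scale). It was 1.4 over 4958 pairs of other protein-coding genes. Tags were higher in replicate 2 in 78 pairs, lower in 19 and equal in 9. The median distance between the summits was 21.5 nt, against 30 nt in the other genes, and 69 pairs (65.1%) had summits within 50 nt, against 63.5%. Across pairs the rank correlation of tags was 0.68, and 0.747 in the other genes.

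**Figure D4:**
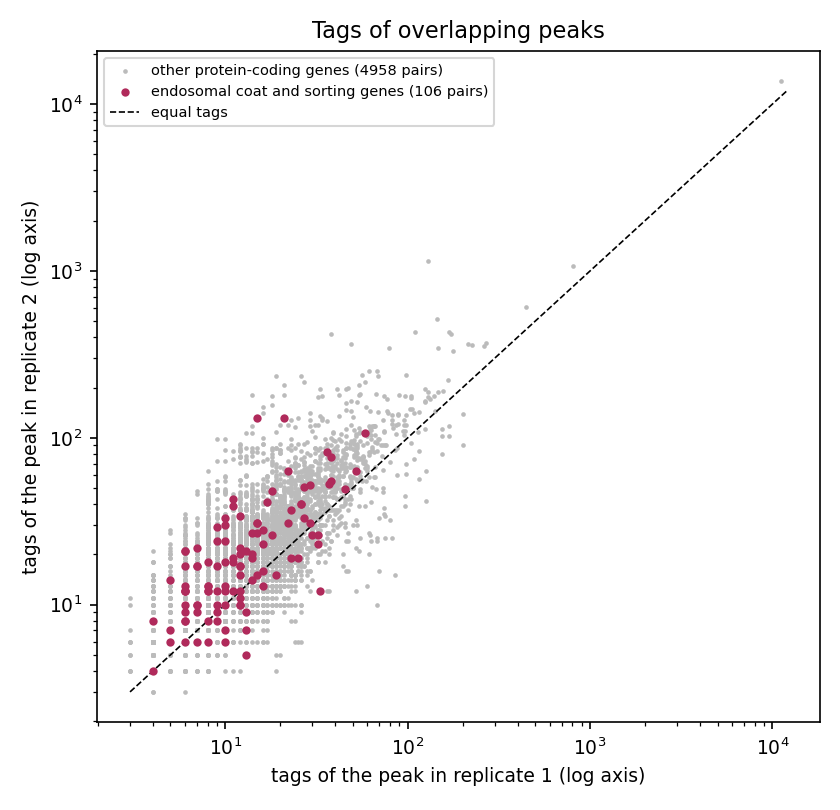
Tags of each pair of overlapping peaks in replicate 1 (horizontal, log axis) and replicate 2 (vertical, log axis), with the 106 pairs of endosomal coat and sorting genes over 4958 pairs of other protein-coding genes in grey. The coloured points lie within the grey ones, with 78 of 106 above the line of equal tags.

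Of the 232 peaks of these genes in replicate 1, 44.8% (38.3 to 51.5) were overlapped in replicate 2, and of the 363 in replicate 2, 28.1% (23.5 to 33) were overlapped in replicate 1. The shares in other protein-coding genes were 36.9% and 25.4%. The overlapped share was larger among peaks with more tags: of those with 20 tags or more, 75.9% and 47.3% were overlapped, and of those with 3 to 5 tags, 16.7% and 5.88%. In other genes the shares were 73.6% and 58.5% at 20 tags or more and 10.7% and 5.08% at 3 to 5 tags. In replicate 2 the overlapped share among peaks with 20 tags or more was thus lower in these genes (47.3%, 36.7 to 58) than in others. This is opposite to the overlapped share over all peaks, and the difference was not tested. Peaks of these genes held a median of 9 and 12 tags, against 8 and 9 for all protein-coding genes; the part of that difference in the overlapped shares was not tested.

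By the authors' region covering most of each peak, 52.2% (45.5 to 58.7) of the peaks in replicate 1 and 44.1% (38.9 to 49.4) in replicate 2 were coding sequence. Introns held 38.8% (32.5 to 45.4) and 43.5% (38.4 to 48.8), the 3′ UTR 8.19% and 10.7%, and the 5′ UTR 0.862% and 1.65%. In other genes, coding sequence held 47.5% and 45.2% and introns 37.1% and 40.2%. Snx29 and Snx24 held 32.2% and 33.5% of the intronic peaks. Without them, a choice made after seeing the data, introns held 31% and 34.2% and coding sequence 58.4% and 51.1%.

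**Figure D5:**
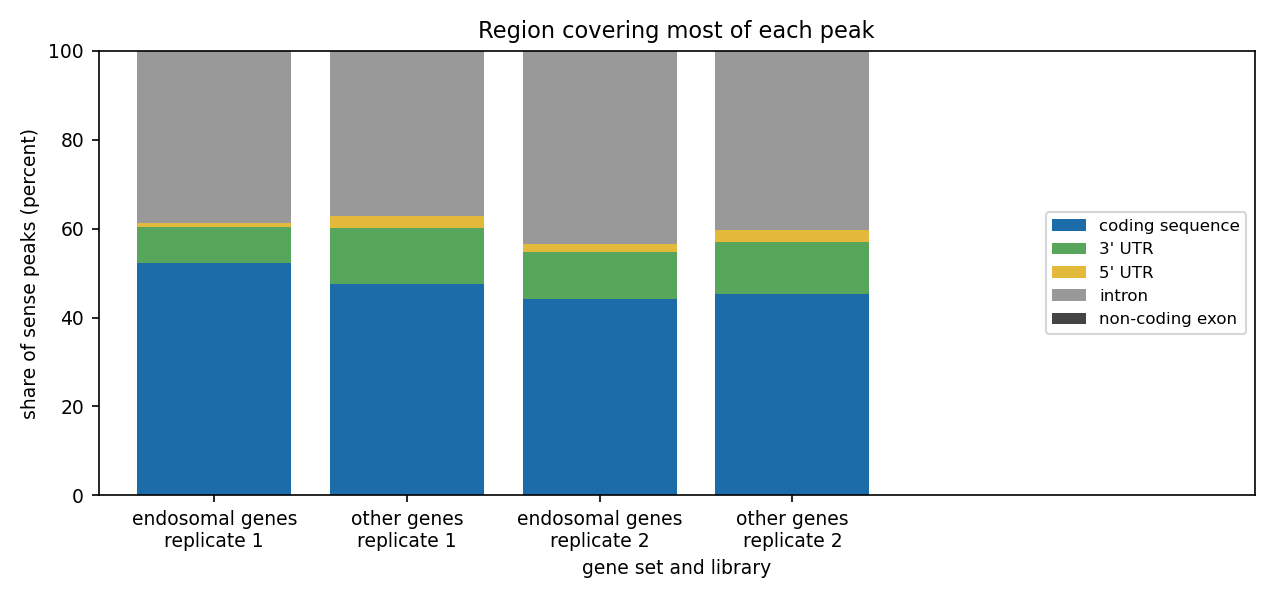
Share of sense peaks in percent (vertical axis) by the region covering most of the peak, for endosomal coat and sorting genes and other protein-coding genes in each library (horizontal axis). Coding sequence and introns make up most peaks in all 4 bars, with coding sequence at 52.2% and 44.1% in the endosomal genes.

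Peak edges often lay exactly on splice boundaries. In replicate 1, 51.7% (45.1 to 58.3) of the peaks of these genes had such an edge, and in replicate 2, 45.2% (40 to 50.5), against 42.8% and 42.2% in other genes. Among peaks in coding sequence the shares were 90.1% (83.3 to 94.8) and 84.4% (77.8 to 89.6), against 79.8% and 80.1%. Whole single exons made up 54 of 232 peaks (23.3%) and 62 of 363 (17.1%), against 16.1% and 16.2% in other genes, so in replicate 2 the share was close to theirs. Besides those named above, whole exons found in both lists included Ap3d1 exons 19 and 22, Ap3b1 exon 2, Ap2a2 exon 14, Ap2b1 exon 3 and Snx2 exon 8.

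The 4-base motif GGAC, a core of the m6A consensus, was sought on the mRNA strand in peaks lying within 1 exon. It was found in 46.8% (37.2 to 56.6) of 109 such peaks in replicate 1 and in 46.4% (38.2 to 54.6) of 151 in replicate 2, against 52% and 51.7% in other genes. The median length of such peaks was 123 and 136 nt, against 147 and 152 nt in other genes. Per kb of peak, GGAC occurred 4.42 and 3.94 times, against 4.85 and 4.72, and the part of length was not tested. On the opposite strand, read as GTCC, the shares were 29.4% and 35.1%, against 40.3% and 41%. In the 100 nt around the summit, GGAC was found in 41.3% and 29.5%, against 38.9% and 38.2%. On the opposite strand of that window the shares were 22.9% and 28.2%, against 26.5% and 26.4%. In replicate 2 the 2 strands were thus close in these genes. Of the windows printed above, that of Ap2a2 was the only one to hold it. Of all 13 windows read in these genes, which do not cover every such pair, 3 held it. Over all protein-coding genes it was in 13.5% of 8548 windows at replicate 2 summits.

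Endosomal genes that the symbol rule does not take were counted beside them, in 5 lists with 66 genes. Of these, 30 had peaks in each library and 21 an overlapping peak, beside 17% and 9.07% of all protein-coding genes. The genes were picked as known endosomal genes. The CCC counts below are near those shares, as is the overlap count of the rest of ESCRT (3 of 21). Of the 21 genes with overlap, 6 were cargo receptors and 9 were coat partners. All 6 cargo receptors had overlapping peaks, among them Lrp1, a scavenger and endocytic receptor, with 2160 and 3488 tags, and Tfrc, the transferrin receptor, with 253 and 222. Among the coat partners, both libraries had a peak in 12 of 22, with overlap in 9, with Dab2, a clathrin adaptor, at 440 and 898 tags. For the rest of ESCRT the counts were 8 of 21 with peaks in both and 3 with overlap, in the WASH complex 2 of 5 and 1, and in the CCC complex 2 of 12 and 2.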

How the data were processed

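Tag counts and peak positions came from the 2 immunoprecipitation peak lists. Per the file headers, the authors deposited a whole, unnormalized tag count per peak and a maximum height, a coverage signal. Reads were handled with bcl2fastq and TopHat2 on GRCm38, per the submitters' processing notes. The peak caller is not given in the sources used here. Deposited starts and summits count from 0: in replicate 1 the start was 1 below an exon start in 3949 of 13536 sense peaks and equal to one in 27. They were therefore raised by 1, and printed coordinates are 1-based.

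Peaks took the authors' gene and the region covering most of them. Positions and sequences came from GENCODE release 21 for mouse, using 1 representative transcript per gene: a complete coding sequence first, then the principal isoform. That order was set after seeing that the principal transcript of Vps35l was a fragment of 608 nt, against 5097 nt in the one used, and the earlier order is given as an alternative. Named genes are the 30 with overlapping peaks and the highest mean rank of summed tags, plus clathrin, core retromer and AP-2 genes; other genes are given by counts, by name where they have no peak, or were named after their values were seen. The members and lists were chosen with earlier results of these data known. No test was run, since there are 2 libraries of 1 group and no input values. The overlap and position code was tested on simulated data. Python 3.11.15, numpy 2.4.6, pandas 2.3.3 and scipy 1.17.1 were used. Alternatives were a minimum of 6 tags, the stronger 50% of each list, overlap of 50% of both peaks, exonic peaks, the peak midpoint, 100 nt around the summit and each replicate alone.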

Additional observations from a re-analysis of the deposited data

Results flagged for a closer look

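Antisense peaks lay outside the comparisons, which used sense peaks. In these genes replicate 1 listed 5 antisense peaks with 19 tags in all, between 3 and 5 tags each, in Snx32, Vps72, Clta, Vps13d and Ap1s1. Replicate 2 listed 2 antisense peaks with 8 tags in all, 4 tags each, in Snx29 and Ap3d1. No gene had an antisense peak in both lists. There are no control values for these peaks, and their source was not tested.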

How the results depend on the processing

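Of 26 other settings 22 kept their result, counts within 1.5 times and shares within the interval of the main value, and 4 moved it. With the stronger 50% of each list, 34 genes rather than 54 had a peak in both libraries, against 8.21% of all protein-coding genes. Requiring an overlap of 50% of both peaks lowered the overlapped share to 28% in replicate 1 and 17.9% in replicate 2. In the 100 nt around the summit the GGAC share in replicate 2 was 29.5%. Leaving out 1 library gave 59 to 71 genes with a peak. Such a count in 1 library cannot fall below the 54 with a peak in both. It is among the 22 settings counted as kept, but does not test that result. Of 12 further settings for these counts and shares, added after seeing the data, 4 moved a value. Without Snx29 and Snx24 the intron share was 31% and 34.2% and the coding sequence share of replicate 2 was 51.1%. With the earlier transcript order, in which partial coding sequences were allowed, and the region read at the peak midpoint, the intron share of replicate 2 was 38%; with the transcript order used it was 39.9%, inside the interval of the main 43.5%. This order changed the transcript of 1 gene, Vps35l, and was changed after the peaks had been placed. Levels per kb are outside these tallies. Counting peaks as exonic by their summit, also added after seeing the data, moved the level in 1 library each of Cltc, Clta, Cltb and Vps13c. The causes were not tested beyond the peaks left out by construction. No paired analysis was possible because the input libraries with the same numbers were not analysed here and the results come from no test. Tag counts of 3 to 5 limit the weak peaks, and the lists give no depth outside peaks.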

Other observations

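The lowest peak height listed in a gene moved with the gene's summed tags. Among endosomal coat and sorting genes with 3 peaks or more, the rank correlation across genes was 0.684 over 30 genes in replicate 1 and 0.652 over 39 genes in replicate 2, and in other protein-coding genes it was 0.77 and 0.733. The lowest height was 16 and 23 in Snx5, 11 and 13 in Cltc and 10 and 12 in Snx29, but 4 in the lowest gene of each library. Both values come from the same peaks and are linked by construction, so the correlation is a description and says nothing of the caller's threshold. This was noticed in the data, and how the peaks were called is not given in the sources used here.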
